A study of Mus musculus with 4 samples.

Results

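The genes described here are the 9 troponin and tropomyosin genes of skeletal muscle thin filaments that MG-U74Av2 oligonucleotide arrays measured in mouse gastrocnemius, of 8251 genes in all. They were taken from the platform annotation, as every probe set with 1 of these symbols as its only symbol, which gave 13 probe sets. The slow troponins were Tnnt1, Tnni1 and Tnnc1, the fast troponins were Tnnt3, Tnni2 and Tnnc2, and the tropomyosins were Tpm1, Tpm2 and Tpm3. Of the 13 probe sets, 10 read at or above a floor of 100 signal units on all 4 arrays and 3 read below it on all 4. All 9 genes kept a probe set above the floor.

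Each of 4 groups had 1 array, with RNA pooled from the gastrocnemius muscles of 10 mice. The first group was intact mice with neither surgery nor injection, and the second had been adrenalectomized 1 week earlier. The remaining 2 groups were adrenalectomized and given 0.1 mg of cortisol into the peritoneum, either 3 h or 24 h before the muscle was taken. Both cortisol groups lacked adrenals like the adrenalectomized group, and their interval since surgery was not given. Strain, sex, age, time of day and a vehicle injection were not named in the labels. Adrenalectomy takes away the gland that makes corticosterone, and injected cortisol binds the receptor that corticosterone uses. With 1 array per group there was no replicate check, no test could be made, and each comparison set 1 pool against another.

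Troponin and tropomyosin make striated muscle respond to calcium. Tropomyosin lies along the actin filament and covers the sites that myosin binds. Troponin C binds calcium, troponin I inhibits the actin-myosin interaction, and troponin T ties the complex to tropomyosin. Slow and fast fibres use different genes for the same subunit, so these transcripts are common markers of fibre type. Mouse gastrocnemius is a mainly fast muscle, and the neighbouring soleus is much slower.

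The tissue label was set beside genes of skeletal muscle, which cannot tell gastrocnemius from another fast muscle. The fast myosin heavy chain gene Myh4 read between 33149 and 34919 and the skeletal actin gene Acta1 between 30827 and 34254. The fast fibre gene Myh2 read below the floor on all 4 arrays, and whether its probe set works was not tested. Slow fibre genes were also read, with Myh7 at 8238 and Myl2 at 12949 on the intact array. Median signals of the 4 arrays lay between 189 and 199.6, and 63.0% to 64.4% of the probe sets reached the floor. Each array was washed in a fluidics module of its own, so the effects of a treatment, a pool and a module cannot be told apart. The highest deposited signals were between 35319.9 and 37846, close to the signals of Tnnt3. Whether differences at such signals were compressed was not tested.

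Because the slow troponins had similar profiles, the 250 bases before their annotated starts are shown, with the fast troponin C gene Tnnc2 for contrast. The sequences came from RefSeq promoter entries of GRCm38.p6, which held 7 of the 9 genes, but not Tnnt3 or Tnni2. The windows lie at chr7:4515976-4516225 on the minus strand for Tnnt1, chr1:135799171-135799420 on the plus strand for Tnni1, chr14:31208062-31208311 on the plus strand for Tnnc1 and chr2:164779735-164779984 on the minus strand for Tnnc2. The Tnni1 entry was the first of 2 starts, and both lie inside the annotated gene, at chr1:135783033-135810989. Capitals mark matches on either strand to 1 of 6 motifs.
Tnnt1: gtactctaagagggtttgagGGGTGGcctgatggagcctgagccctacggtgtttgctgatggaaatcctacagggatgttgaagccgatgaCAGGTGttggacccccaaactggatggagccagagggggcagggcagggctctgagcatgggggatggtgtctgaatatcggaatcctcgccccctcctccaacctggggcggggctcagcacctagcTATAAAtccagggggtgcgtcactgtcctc
Tnni1: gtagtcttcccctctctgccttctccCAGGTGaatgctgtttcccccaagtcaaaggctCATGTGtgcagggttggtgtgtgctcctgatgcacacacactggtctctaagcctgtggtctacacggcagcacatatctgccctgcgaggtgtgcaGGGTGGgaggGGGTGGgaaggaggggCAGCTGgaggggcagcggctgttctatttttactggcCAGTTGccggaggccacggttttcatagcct
Tnnc1: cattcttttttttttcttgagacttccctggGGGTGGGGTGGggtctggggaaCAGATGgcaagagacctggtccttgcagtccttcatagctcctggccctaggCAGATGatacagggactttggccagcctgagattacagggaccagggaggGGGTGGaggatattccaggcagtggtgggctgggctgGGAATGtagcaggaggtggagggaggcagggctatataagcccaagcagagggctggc
Tnnc2: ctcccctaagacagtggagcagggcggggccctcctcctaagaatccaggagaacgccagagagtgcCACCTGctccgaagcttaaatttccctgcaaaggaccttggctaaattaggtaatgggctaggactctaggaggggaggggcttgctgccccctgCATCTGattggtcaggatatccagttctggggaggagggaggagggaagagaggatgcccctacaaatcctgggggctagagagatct

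The E-box CANNTG, the core letters bound by MyoD and its relatives, occurred 1 time before Tnnt1, 4 times before the first Tnni1 start, 2 times before the second, 2 times before Tnnc1 and 2 times before Tnnc2. It was present in 66.2% of all 32851 promoter windows of this length. The CACC box CCACCC occurred 1, 2 and 3 times before Tnnt1, Tnni1 and Tnnc1 and was not found before Tnnc2, and 28.1% of all windows held it. This was no slow and fast division, since Tpm2 had 1 match, Tpm1 had none, and Tpm3 had 1 before its first start and none before its second. The MCAT letters CATTCC, known as a site of TEAD factors, were found before Tnnc1 and also before Tpm1 (12.6% of all windows). The TATA box letters TATAAA were found before Tnnt1 (12.4%). Neither the MEF2 consensus (2.92% of all windows) nor ACANNNTGT, the core spacing of a glucocorticoid response element (5.84%), was found in the 4 windows. No match overlapped a match to another motif. A match here is a string of letters, and binding was not measured.

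By the brightest probe set of each gene, the slow troponin transcripts were about 4-fold lower on both cortisol arrays than on the adrenalectomized array. Tnnt1, the slow troponin T gene, read 9315 on the intact array, 11148 after adrenalectomy, 2711 at 3 h and 2279.6 at 24 h. Both cortisol signals lay below both signals without cortisol. Tnnt1 was 4.11-fold lower at 3 h and 4.89-fold lower at 24 h than in adrenalectomized muscle. By a second, dimmer probe set it was 2.98-fold and 2.16-fold lower. In bulk muscle, fewer slow fibres in a pool and less of the transcript per fibre cannot be told apart.

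Tnni1, which encodes the slow inhibitory subunit, read 5659 in intact muscle, 7030.7 after adrenalectomy, 1768 at 3 h and 1802.5 at 24 h. It was 3.98-fold lower at 3 h and 3.90-fold lower at 24 h than after adrenalectomy alone. Tnnc1, the calcium-binding subunit gene of slow and cardiac muscle, read 3938, 4868, 1296 and 1010.6 on the 4 arrays in the same order. That is 3.76-fold lower at 3 h and 4.82-fold lower at 24 h. Each of the 3 slow troponin genes thus had the same separation, with the 2 arrays without cortisol high and the 2 with cortisol low.

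Tpm3, the tropomyosin gene whose muscle transcripts are typical of slow fibres, followed the slow troponins. Its signals were 6936 in intact muscle, 7136 after adrenalectomy, 1854 at 3 h and 1677 at 24 h. It was 3.85-fold lower at 3 h and 4.25-fold lower at 24 h against adrenalectomized muscle. The lower of its signals without cortisol was 3.74 times the higher of its cortisol signals. The same quotient was 3.44 for Tnnt1, 3.14 for Tnni1 and 3.04 for Tnnc1.

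The fast troponins did not share this pattern. Tnnt3, the fast troponin T gene, read 31442 in intact muscle, 31871 after adrenalectomy, 32844 at 3 h and 36007 at 24 h. Tnnc2, the fast calcium-binding subunit gene, read 20337, 20949, 19831 and 18889.7. The 4 arrays were close together for both genes, with highest over lowest signals of 1.15 for Tnnt3 and 1.11 for Tnnc2. Tnni2, which encodes the fast inhibitory subunit, read 2001, 2293, 2103 and 2864. Its 24 h signal was the highest, 1.25-fold above the adrenalectomized array and 1.43-fold above the intact one.

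Of the other tropomyosins, Tpm2 (beta tropomyosin, used in slow and fast fibres) read 16786 in intact muscle, 17084 after adrenalectomy, 15157 at 3 h and 16339.6 at 24 h. Its highest signal was 1.13 times its lowest. Tpm1, the alpha tropomyosin gene of fast and cardiac muscle, which smooth muscle and other cells also transcribe, read 693, 751, 595 and 648. It was 1.26-fold lower at 3 h and 1.16-fold lower at 24 h than in adrenalectomized muscle. Levels of different probe sets were not compared with each other, and the arrays did not tell splice forms of a tropomyosin gene apart.

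**Figure D1:**
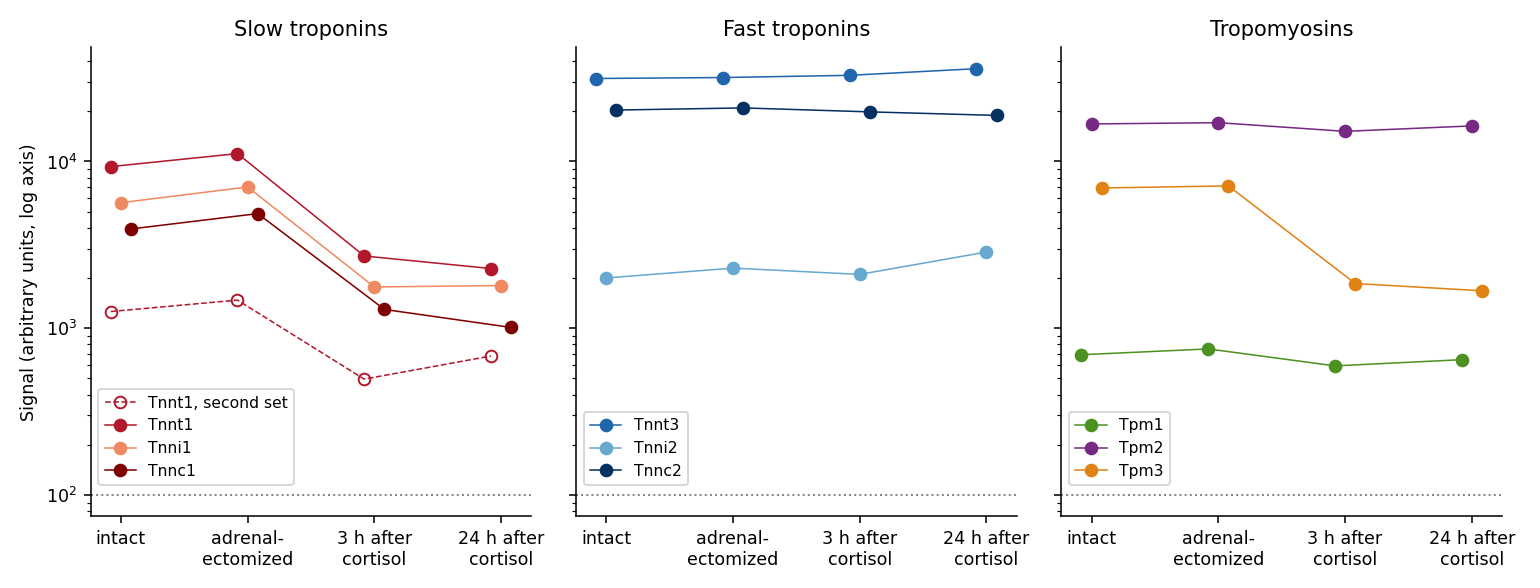
Signals on the 4 arrays (x axis; y axis in arbitrary units, log scale) of the probe set that stands for each gene (filled points) and of the second Tnnt1 probe set (open points). Lines join points of 1 probe set, the dotted line is the floor of 100, and levels of different probe sets are not comparable. Tnnt1, Tnni1, Tnnc1 and Tpm3 are lower on both cortisol arrays. The other 5 genes vary less, the most for Tnni2, with a highest over lowest signal of 1.43.

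The size of these differences was set against the error of a log2 ratio. That error was estimated from genes with 2 probe sets, as the SD of the difference between their log2 ratios divided by the square root of 2. It was 0.28 for 3 h against adrenalectomized (928 genes), 0.32 for 24 h against adrenalectomized (926 genes) and 0.24 for adrenalectomized against intact (928 genes). Among 132 genes whose sets both averaged at least 1000 it was 0.16, 0.21 and 0.16. Both probe sets saw the same RNA, so differences between animals, pools and dissections are not in this SD.

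At 3 h the log2 ratios to adrenalectomized muscle were -2.04 for Tnnt1, -1.99 for Tnni1, -1.91 for Tnnc1 and -1.94 for Tpm3. These 4 were the members at least 2-fold lower, and no member was 2-fold higher. Over all 6168 genes compared, 1.17% were at least 2-fold lower. In the order from the lowest ratio, the 4 genes held places 2, 6, 8 and 7. The log2 ratios of the other members were 0.04 for Tnnt3, -0.13 for Tnni2, -0.08 for Tnnc2, -0.17 for Tpm2 and -0.34 for Tpm1, all within 2 SD of 0 and all but Tpm1 within 1 SD, with Tpm2 beyond 1 SD of bright genes. Scaling to ribosomal proteins turned the sign for Tnnt3. The median of all genes was -0.02.

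At 24 h the log2 ratios to adrenalectomized muscle were -2.29 for Tnnt1, -1.96 for Tnni1, -2.27 for Tnnc1 and -2.09 for Tpm3. Again these 4 members were the ones at least 2-fold lower, against 1.06% of 6228 genes. They held places 2, 11, 4 and 6 from the lowest ratio. Tnnt3 had a log2 ratio of 0.18, Tnni2 0.32, Tnnc2 -0.15, Tpm2 -0.06 and Tpm1 -0.21. Of these 5, Tnni2 alone lay beyond 1 SD and none beyond 2 SD. The 3 h and 24 h comparisons share the adrenalectomized array, so they are not independent of each other.

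Set against the intact array, the same 4 genes were lower again. At 3 h, Tnnt1 was 3.44-fold, Tnni1 3.20-fold, Tnnc1 3.04-fold and Tpm3 3.74-fold lower than in intact muscle, where 1.04% of 6162 genes were at least 2-fold lower. Tpm3 had the lowest ratio of all genes in that comparison. At 24 h the folds were 4.09 for Tnnt1, 3.14 for Tnni1, 3.90 for Tnnc1 and 4.14 for Tpm3, against 1.01% of 6219 genes. The 4 genes thus passed 2-fold with either array without cortisol as the reference, Tnnt1 by its brighter probe set.

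The cortisol arrays were then compared with each other. From 3 h to 24 h the log2 ratios were -0.25 for Tnnt1, 0.03 for Tnni1, -0.36 for Tnnc1 and -0.14 for Tpm3, with an error SD of 0.31. None of the 9 members was 2-fold different, against 3.28% of 6229 genes, and none was 1.5-fold different, against 11.6%. The largest log2 ratio in this comparison was 0.45, for Tnni2, beyond 1 SD of all genes and, with the error SD of bright genes of 0.19, beyond 2 SD. Of the 4 slow genes, Tnnc1 lay beyond 1 SD of all genes and Tnnt1, by its brighter set, beyond 1 SD of bright genes only. None of the 4 lay beyond 2 SD. A second, dimmer Tnnt1 set was 1.38-fold higher at 24 h than at 3 h. The sign for Tnni1 turned when the arrays were scaled to a common median.

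Removal of the adrenals alone was followed by small differences. The 3 slow troponins were each higher on the adrenalectomized than on the intact array, Tnnt1 by 1.20-fold, Tnni1 by 1.24-fold and Tnnc1 by 1.24-fold. Their log2 ratios of 0.26, 0.31 and 0.31 lay beyond 1 SD but within 2 SD of 0 with the error of all genes. With the error of bright genes, which these 3 are, Tnni1 lay just beyond 2 SD. Tpm3 did not share this shift, with a log2 ratio of 0.04, and the fast troponins had log2 ratios of 0.02 for Tnnt3, 0.20 for Tnni2 and 0.04 for Tnnc2. None of the 9 members differed by 2-fold, against 0.720% of 6112 genes, and none by 1.5-fold, against 4.91%. The signs for Tpm3, Tpm2, Tnnt3 and Tnnc2 turned when the arrays were scaled to a common median.

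**Figure D2:**
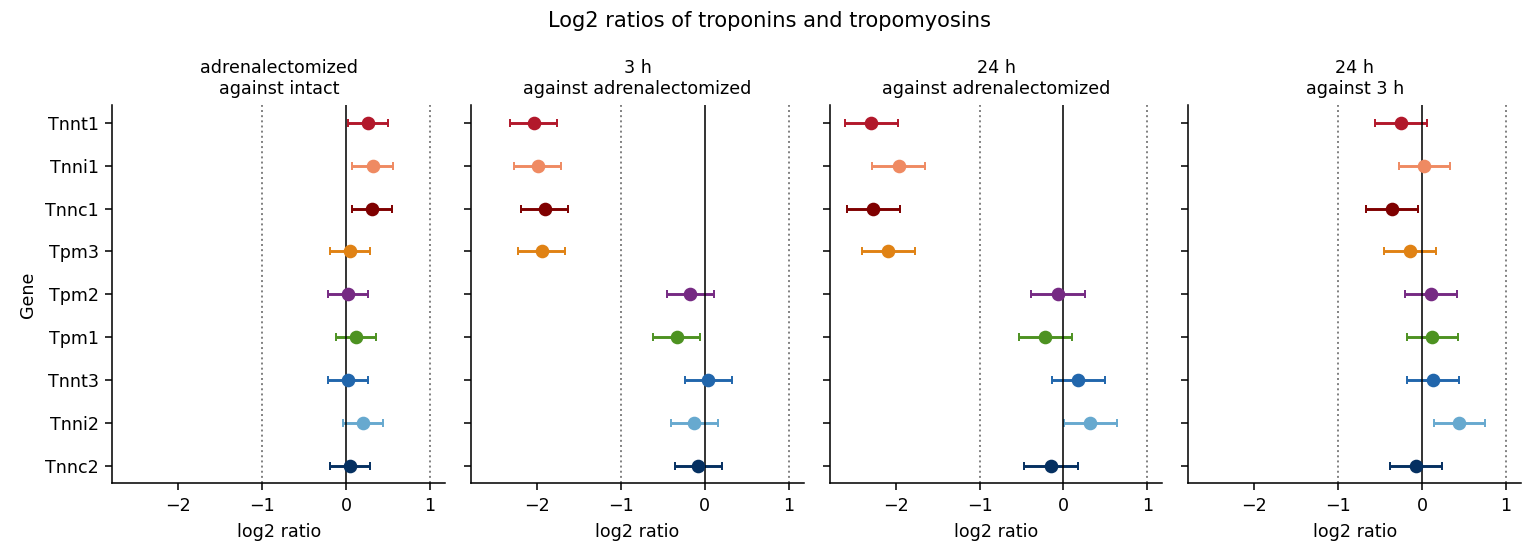
Log2 ratios (x axis) of the 9 genes (y axis) in 4 comparisons; bars are 1 SD of the error estimated from genes with 2 probe sets, and dotted lines mark 2-fold. Tnnt1, Tnni1, Tnnc1 and Tpm3 lie near -2 in both comparisons of cortisol with adrenalectomized muscle, and the other points lie within 2-fold of 0.

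The order of the arrays by signal was the same for the brighter Tnnt1 set, Tnnc1 and Tpm3, with adrenalectomized highest, then intact, 3 h and 24 h. Tnni1 and a dimmer Tnnt1 set had the same order except that 24 h lay above 3 h. In each of the 4 genes the step from intact to the higher of the cortisol arrays was the only one between neighbours beyond 2 SD of all genes. Tpm2 and Tpm1 were in the order adrenalectomized, intact, 24 h and 3 h, and Tnnt3 in the order 24 h, 3 h, adrenalectomized and intact. Tnni2 had the order 24 h, adrenalectomized, 3 h and intact, with only its highest step beyond 1 SD. No neighbouring steps of Tpm1, Tpm2, Tnnt3 or Tnnc2 exceeded 1 SD.

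Within a pair of arrays a scaling factor cancels in the difference between slow and fast genes. The mean log2 ratio of the 3 slow troponins minus that of the 3 fast troponins was -1.93 for 3 h against adrenalectomized, a 3.80-fold shift, and -2.29 for 24 h against adrenalectomized, a 4.89-fold shift. The error SD of this difference was 0.23 and 0.26, if the errors of the 6 probe sets were independent. Against intact muscle the difference was -1.72 at 3 h and -2.08 at 24 h. It was 0.21 for adrenalectomized against intact, with an error SD of 0.20, and 0.06 when all probe sets of a gene were averaged. It was -0.36 for 24 h against 3 h, with an error SD of 0.25, and ranged from -0.64 to -0.08 over the alternatives. The -0.64 comes from leaving out genes over 20000, which left Tnni2 as the only fast troponin. The 0.06 and the -0.08 come from averaging all probe sets. That average takes in a Tnnc2 set below the floor on all 4 arrays and a dimmer Tnnt1 set.

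Each subunit was then taken on its own. At 3 h against adrenalectomized muscle, Tnnt1 was lower relative to Tnnt3 by a factor of 4.24, Tnni1 against Tnni2 by 3.65 and Tnnc1 against Tnnc2 by 3.56. At 24 h the factors were 5.53, 4.87 and 4.34. With the dimmer Tnnt1 set in place of the brighter one, the factor for troponin T was 3.07 at 3 h and 2.45 at 24 h. Among tropomyosins, Tpm3 was lower against Tpm2 by a factor of 3.41 at 3 h and 4.07 at 24 h, and against Tpm1 by 3.05 and 3.67.

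The size of the Tnnt1 difference depended on its probe set. A second, dimmer Tnnt1 set read 1259 in intact muscle, 1474 after adrenalectomy, 495 at 3 h and 681 at 24 h. It had the same direction in both cortisol comparisons, 2.98-fold lower at 3 h and 2.16-fold lower at 24 h than after adrenalectomy alone. At 24 h its log2 ratio of -1.11 was 1.18 above that of the brighter set, and 19 of 926 genes had probe sets that differed as much. Against intact muscle at 24 h the dimmer set was 1.85-fold lower, short of 2-fold. From 3 h to 24 h the dimmer set was 1.38-fold higher while the brighter set was 1.19-fold lower, so the probe sets differ on the course of Tnnt1 after 3 h. The ID of the brighter set carries a suffix for probes shared between transcripts, and that of the only Tnnc2 set above the floor a suffix for probes shared within a sequence family, so their signals may include other transcripts.

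The other probe sets of these genes were dim. The second Tnnc2 set read between 4.49 and 14.9, the second Tpm2 set between 69.0 and 98.2, and the second Tpm3 set between 11.1 and 32.7. Tnnt2 and Tnni3, the cardiac troponin T and I genes, read at most 90.2 and 103 on any array. Tnni3 lies next to Tnnt1 on chromosome 7, and Tnni2 and Tnnt3 lie near each other on the same chromosome with Lsp1 between them.

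Among all 6416 genes that reached the floor, 14 read at least 2-fold lower on both cortisol arrays than on both arrays without cortisol, 0.218% of the genes. They included Tpm3, Tnnt1, Tnni1 and Tnnc1. Another 4 were the slow myosin heavy chain gene Myh7, the slow myosin light chain genes Myl2 and Myl3, and Atp2a2, the calcium pump gene of slow fibres and heart. A further 4 were Alb, Serpina1b, Serpina1e and Mup3, which are genes of liver plasma proteins, and the last 2 were Zbtb17 and Ptpru. All of the liver genes but Alb were read by probe sets that may also bind related transcripts. The listed genes among these had been chosen with earlier results of these data known. Zbtb17 and Ptpru, which are on no list, were named after their values were seen.

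Among 1535 genes with a mean signal of at least 1000, 12 were at least 2-fold lower at 3 h than after adrenalectomy, 0.782% of them. Of these 12, 4 were Tnnt1, Tnni1, Tnnc1 and Tpm3 and 4 were Myh7, Myl2, Myl3 and Atp2a2. The other 4 were Chad, Tbc1d10a, and the circadian clock genes Bhlhe40 and Nr1d1, which were 2.12-fold and 2.07-fold lower, and time of day was not given. At 24 h, 9 of the 1535 were as low, 0.586%, and 8 of the 9 were these slow fibre genes. The remaining 1 was Pdk4, a kinase gene whose product holds back pyruvate oxidation. These 5 genes were named after their values were seen, and the slow fibre genes had been listed with earlier results of these data known.

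**Figure D3:**
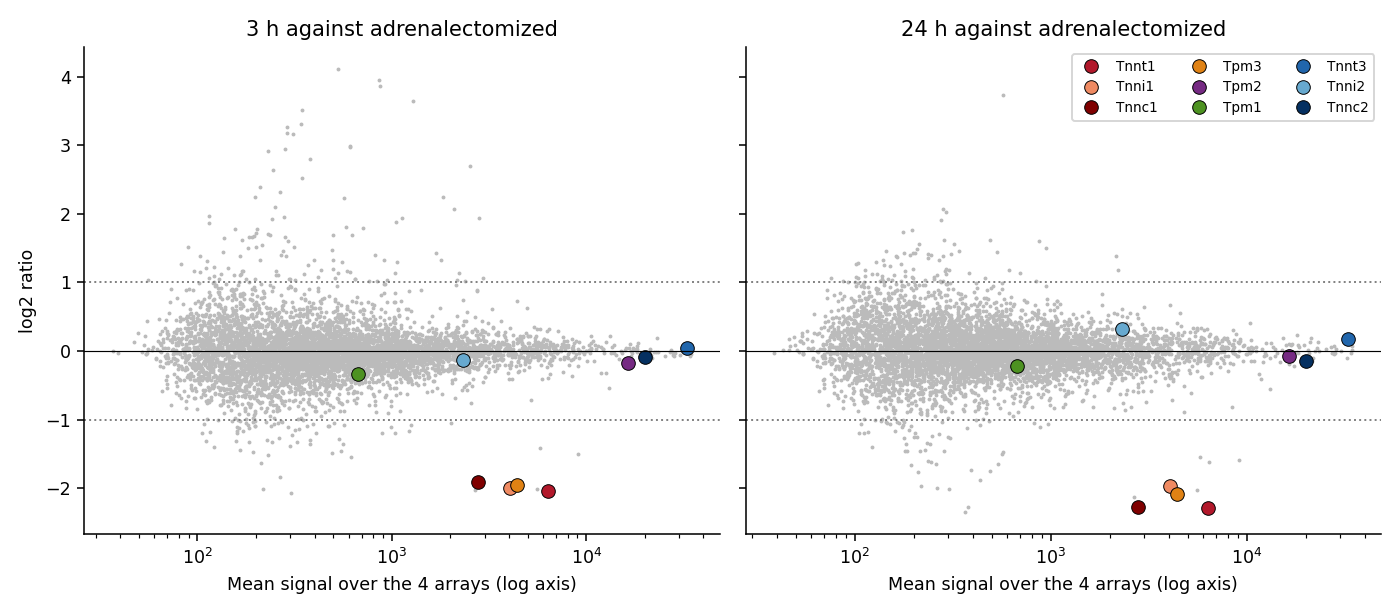
Log2 ratio (y axis) of every gene compared (grey) against its mean signal over the 4 arrays (x axis, log scale), at 3 h and 24 h against adrenalectomized muscle; large points are the 9 troponin and tropomyosin genes and dotted lines mark 2-fold. Tnnt1, Tnni1, Tnnc1 and Tpm3 lie below most of the cloud at mean signals from 2778 to 6363. Grey points of Atp2a2, Myh7, Myl2 and Myl3 also lie beyond the lower dotted line.

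The rest of the sarcomere was described by gene lists, which were chosen with earlier results of these data known. The list of other slow fibre genes, which holds slow thick filament and slow metabolic genes, had 10 members on the array. Of these, 4 were at least 2-fold lower at 3 h and 4 at 24 h against adrenalectomized muscle, beside 1.17% and 1.06% of all genes, and its medians were -0.55 and -0.46 where those of all genes were -0.02 and 0.01. Myh7 was 4.02-fold lower at 3 h and 4.05-fold lower at 24 h. Atp2a2 was 4.06-fold and 4.35-fold lower, Myl2 2.83-fold and 2.99-fold, and Myl3 2.66-fold and 2.92-fold. The other 6 members had log2 ratios between -0.57 and -0.07 at 3 h, and the highest at 24 h was 0.43, for the calsequestrin gene Casq2. Myh7 and Atp2a2 were read by probe sets that may also bind other transcripts.

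Of 13 fast fibre members that reached the floor, none was 1.5-fold different in either cortisol comparison with adrenalectomized muscle, beside 9.82% of all genes at 3 h and 10.0% at 24 h, and the medians were -0.05 and 0.03. The largest log2 ratios were 0.32 for Gpd1, a glycerol phosphate shuttle enzyme gene, at 3 h and 0.19 for the muscle creatine kinase gene Ckm at 24 h. Several of these genes read above 20000, as Tnnt3 did, where compression was not tested.

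The other thin filament and Z-disc genes numbered 20 on the array. Their medians were -0.02 at 3 h and -0.07 at 24 h against adrenalectomized muscle. None was 2-fold different. Over all genes 1.17% were at least 2-fold lower and 1.86% higher at 3 h, and 1.06% and 1.27% at 24 h. At these shares few or none of 20 genes would be 2-fold different. Acta1, which encodes the actin on which all these regulators sit, had log2 ratios of -0.02 and -0.09. The Z-disc genes Actn2 and Csrp3 had log2 ratios of -0.55 and -0.48 at 3 h, and Pdlim1 had one of -0.72 at 24 h. The cardiac actin gene Actc1 had log2 ratios of 0.22 and -0.14, from a probe set that may also bind other actins.

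**Figure D4:**
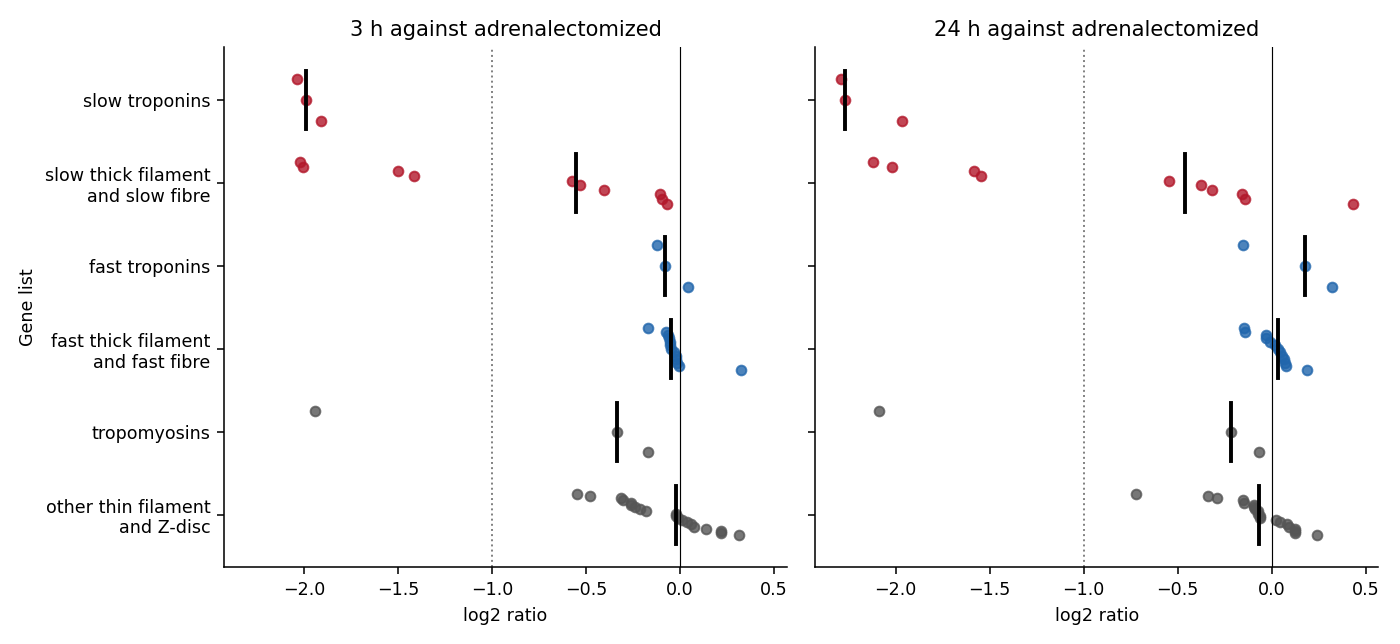
Log2 ratios (x axis) of single genes (points) by gene list (y axis) at 3 h and 24 h against adrenalectomized muscle; black bars are list medians and dotted lines mark 2-fold lower. All 3 slow troponins, 4 of 10 other slow fibre genes and Tpm3 among the tropomyosins lie below -1.

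By profile over the 4 arrays, the genes nearest to the mean of the slow troponins were sought among 5443 other genes at or above the floor on all 4. Likeness was the root mean square difference of log2 signals, each centred on the gene's own mean. The nearest were Atp2a2 at 0.05, Myh7 at 0.07, Zbtb17 at 0.16, Myl2 at 0.23, Serpina1e at 0.26, Myl3 at 0.28, Alb at 0.30 and Dnajc11 at 0.32. Tpm3 had a distance of 0.10, with 2 of the 5443 genes closer. Tpm1, Tpm2, Tnnc2, Tnnt3 and Tnni2 had distances between 0.87 and 1.09.

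**Figure D5:**
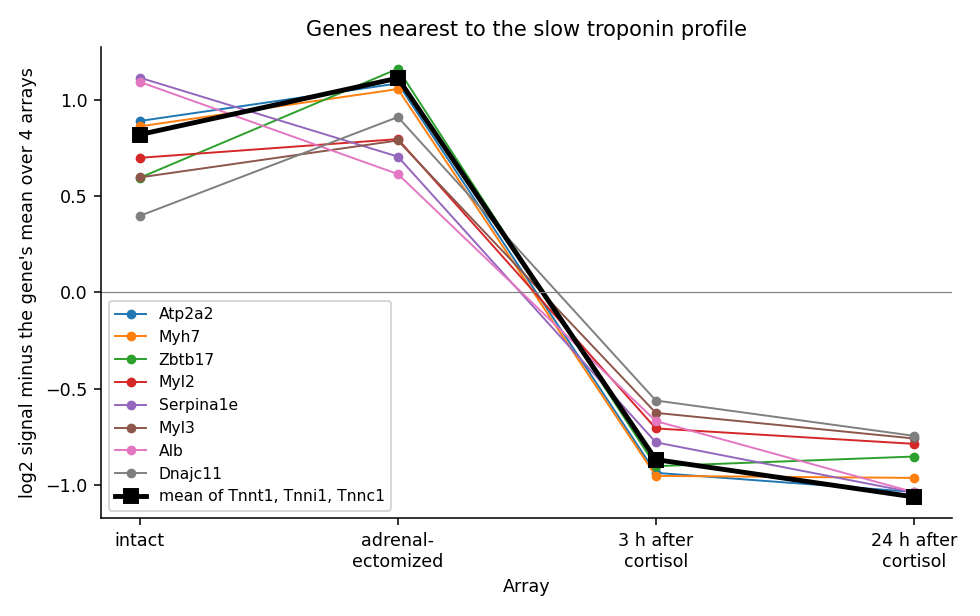
Log2 signal minus the gene's mean over the 4 arrays (y axis) on each array (x axis) for the 8 genes nearest to the mean profile of Tnnt1, Tnni1 and Tnnc1 (black). All 9 lines are above 0 on both arrays without cortisol and below 0 on both with it.

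Markers of other cell types also moved on the cortisol arrays. The marker lists, too, were chosen with earlier results of these data known. Of 8 hepatocyte markers on the array, 7 reached the floor, and their summed signal over the 8 was 4128 in intact muscle, 2843 after adrenalectomy, 1304 at 3 h and 951 at 24 h. Against adrenalectomized muscle, 4 of 6 compared were at least 2-fold lower at 3 h and at 24 h, beside 1.17% and 1.06% of all genes. These 4 were Alb, Serpina1b, Serpina1e and Mup3. All but Alb were read by probe sets with a suffix for probes shared within a sequence family. The Serpina1b and Serpina1e readings are thus not fully separate. The fibrinogen gene Fgb was below the floor on all 4 arrays. Of 12 epidermis and hair markers, 9 reached the floor, and the summed signal over the 12 was 1383, 1419, 10685 and 2824. At 3 h 8 of the 9 were at least 2-fold higher than after adrenalectomy, against 1.86% of all genes, and at 24 h 5 of the 9, against 1.27%. The 8 were Krt1, Krt10, Krt71, Krt27, Dsp, Flg, S100a3 and Krtap8-1, from 3.15-fold for Krt1 to 17.2-fold for Dsp. For Krt27, Dsp, Flg and Krtap8-1 the adrenalectomized signal was set to the floor. Krt5, Krt14 and Krt15, keratin genes of the basal layer, read below the floor on all 4 arrays. The part of these tissues in the slow gene result was not tested.

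Other markers differed less. The summed signal of 6 smooth muscle markers lay between 5966 and 6594, that of 4 fat cell markers between 2312 and 3172, and that of 4 erythroid markers between 6627 and 9234. Of the smooth muscle markers, the desmin gene Des read between 2070 and 2353 and is also on the Z-disc list. The sum and the medians of that list are thus not of smooth muscle alone. The smooth muscle list bears on Tpm1 and Tpm2, which smooth muscle also transcribes. Its median log2 ratios were 0.03 at 3 h and 0.05 at 24 h against adrenalectomized muscle. None of 5 compared was 1.5-fold different, beside 9.82% of all genes at 3 h and 10.0% at 24 h.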

How the data were processed

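Total RNA from gastrocnemius pooled over 10 mice per group was hybridized to 4 arrays, 1 per group. The authors deposited 1 linear intensity (signal) per probe set, made with MAS 5.0 per the labels. The deposited signals already had trimmed means between 500.0 and 500.6 on the 4 arrays, with the outer 2% dropped on both sides.

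Controls (66 of 12488 probe sets) were left out. Each array was scaled to a trimmed mean of 500 over the other 12422, signals under 100 were set to 100, and log2 ratios were taken with Python 3.11.15 and pandas 2.3.3. Symbols came from the platform annotation: 10833 probe sets had 1 symbol, 396 several and 1193 none. The brightest probe set stood for each gene. All 9 genes matched GRCm38.p6 by gene ID. With 1 array per group no test or p-value was computed, and 2-fold was the size rule. The steps were tested on simulated data. All 9 genes were named with every probe set. From the slow fibre, fast fibre, Z-disc, embryonic, hepatocyte and epidermis lists, members at least 2-fold different in a main comparison are named. Where a list had none, the 2 with the largest log2 ratios are named, with some more for context. Members of the other lists were not chosen by this rule. The members, lists and motifs were chosen with earlier results of these data known.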

Additional observations from a re-analysis of the deposited data

How the results depend on the processing

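No paired analysis was possible because each group had 1 array. The alternatives were no rescaling, scaling to the median or to 30 ribosomal protein probe sets, quantile normalization, and floors of 20 and 200. Others were the mean of all probe sets of a gene and only probe sets without a suffix letter. In the last 2, Tpm3 was added to the slow and Tpm1 to the fast group, or genes over 20000 were left out. Leaving out genes over 20000 left Tnni2 as the only fast troponin. The slow minus fast troponin difference lay between -2.00 and -1.78 for 3 h against adrenalectomized and between -2.49 and -2.03 for 24 h against adrenalectomized over these settings. It lay between -1.94 and -1.61 for 3 h and between -2.40 and -1.86 for 24 h against intact. For adrenalectomized against intact it lay between 0.06 and 0.21. The -2.49 and the -2.40 came from leaving out genes over 20000, so they set the slow troponins against Tnni2 alone. The count of members at least 2-fold different was 4 in each comparison of a cortisol array with one without cortisol under the 8 settings that give a count, except for 3 at 24 h against intact with only probe sets without a suffix letter, where Tnnt1 was read by its dimmer set and Tnnc2 was left out. Of 426 single-gene values, 408 moved by less than the error SD, and the other 18 belonged to Tnnt1, Tnnc2, Tpm2 and Tpm3 under the 2 settings that change the probe set. Averaging in the second set of Tpm3, which read below the floor, gave log2 ratios of -1.57 at 3 h and -1.01 at 24 h against adrenalectomized. Averaging in the second set of Tnnc2, also below the floor, moved its adrenalectomized against intact log2 ratio from 0.04 to 0.48. Of 54 main values, 9 changed sign under another scaling, the largest of them 0.07 in size. Scaling to ribosomal proteins moved the median of all genes to -0.20 for 3 h against adrenalectomized, -0.16 for 3 h against intact and 0.14 for 24 h against 3 h. Dim probe sets carry the larger error, and the number of arrays limits the precision of every value.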

Other observations

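Tpm4, a tropomyosin gene of non-muscle cells outside the 9 genes, read 1356 in intact muscle, 1893 after adrenalectomy, 1793 at 3 h and 1611 at 24 h. It was 1.40-fold higher on the adrenalectomized than on the intact array and 1.06-fold lower at 3 h than after adrenalectomy, and so did not have the Tpm3 pattern. Myl4, the atrial light chain gene that immature skeletal fibres also use, read between 448 and 498 on the 4 arrays. Of 9 genes of embryonic and regenerating fibres on the array, 7 reached the floor, and at 3 h against adrenalectomized muscle 1 was at least 2-fold lower and 1 at least 2-fold higher, beside 1.17% and 1.86% of all genes. The lower one was Myod1, which encodes a muscle-determining transcription factor and read 1141, 1008, 440.1 and 947 on the intact, adrenalectomized, 3 h and 24 h arrays. The higher one was Chrng, the gene of the fetal acetylcholine receptor subunit, which read 194, 64.6, 230.5 and 84.8.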
